A study of Mus musculus with 6 samples.

Results

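A T cell reads its antigen through the T cell receptor, whose signal is carried into the cell by the CD3 chains and the zeta chain. The coreceptors CD4 and CD8 bind the same antigen-presenting molecule from the outside and bring the kinase LCK to those chains from the inside. Helper T cells keep CD4 under the factor ThPOK, while cytotoxic T cells keep CD8 under RUNX3, and each factor holds the program of the other in check.

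The genes described here are 10 of the 56748 in the deposited count table. They are the coreceptor genes *Cd4*, *Cd8a* and *Cd8b1*, the lineage factor genes *Zbtb7b* (ThPOK) and *Runx3*, the receptor chain genes *Cd3d*, *Cd3e*, *Cd3g* and *Cd247* (zeta), and the kinase gene *Lck*. All 10 were among the 14936 genes that passed the filter on low counts. They were chosen by their role, but also from the counts of these same 6 libraries, since differences between the groups were already known when they were put together. Their differences are therefore given as a description, and no test is used to support them.

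Naïve CD4 cells were taken by negative selection from spleen and lymph nodes of wild-type C57BL/6 mice aged 6 to 10 weeks and grown under Treg polarizing conditions for 3 days (72 hr in the methods), with plate-bound antibody to CD3 as the stimulus. Antisense oligonucleotides (ASOs), made to bind RNA of matching sequence, were added at 10 μM from the start. In 3 cultures the strand was scrambled and in 3 it was directed at *Pgam*, the gene family of the glycolytic enzyme phosphoglycerate mutase. Messenger RNA of the unsorted cells was sequenced, which gave 17588755, 18032805 and 16231127 counts under the scrambled label and 16589933, 15860476 and 16803881 under the *Pgam* label. Values are given below for replicates 1, 2 and 3 in that order, with the libraries labelled scrambled ASO before those labelled *Pgam* ASO. The libraries of a group are described as biological replicates, but no source says whether they came from separate mice, so p-values cover the spread between these libraries.

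The target of the ASO was looked at first. *Pgam1*, which encodes the main form of the enzyme, stood at 600, 478 and 707 CPM (counts scaled to the size of the library) under the scrambled label and at 658, 661 and 707 CPM under the *Pgam* label. *Pgam2*, the muscle form, was at 5.23, 6.75 and 2.85 CPM against 2.98, 2.69 and 2.60 CPM. The groups overlapped for both genes, with an edgeR adjusted p of 0.331 for *Pgam1* and 0.0854 for *Pgam2*. RNA of the target thus gave no check of the labels, and the libraries are named by their label throughout.

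In all 6 libraries the genes listed for CD4 T cells summed to far more than those listed for CD8 T cells. The 7 genes listed for CD4 T cells, led by *Cd4*, summed to 2553, 2783 and 2379 CPM in the libraries labelled scrambled ASO and to 1982, 2113 and 2162 CPM under the *Pgam* label. They include receptor genes such as *Trac* that are not particular to helper cells, so this sum does not mark that type alone. The 6 genes listed for CD8 T cells, led by *Eomes*, summed to 75.9, 60.3 and 77.6 CPM against 48.3, 43.2 and 45.3 CPM. By edgeR, 3 of the 7 genes listed for CD4 T cells passed, *Trac* and *Cd28* as lower and *Cd40lg* as higher. Of 5 tested CD8 T cell genes 3 passed, *Eomes* and *Klrd1* as lower and *Cd8a* as higher. Among all tested genes 17.2% passed. Nothing is read from these numbers of calls, because the lists hold *Cd4* and *Cd8a*, which were chosen with the same contrast known. *Cd8a* did not pass without replicate 1 labelled scrambled ASO, without replicate 1 labelled *Pgam* ASO or with the replicate number as a block. *Foxp3*, which encodes the defining factor of Tregs, was present in every library, at 282, 371 and 222 CPM against 89.7, 109 and 131 CPM. It shares 16.2% of its 31-base stretches with the transcript *Flicr*, between which Kallisto has to divide reads. The 4 genes listed for Tregs, led by *Il2ra*, summed to 2786, 2682 and 3033 CPM against 3485, 3522 and 3128 CPM. Of these 4, *Il2ra* rose while *Foxp3* and *Ikzf2* fell past the threshold and *Ctla4* was lower without overlap, so the sum follows *Il2ra* and not the list.

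*Cd4*, on the minus strand at chr6:124864692-124888221 of GRCm38 (ENSMUSG00000023274), was the most counted of the 10 genes. It stood at 775, 804 and 732 CPM under the scrambled label and at 650, 651 and 697 CPM under the *Pgam* label. Every library labelled *Pgam* ASO lay below every library labelled scrambled ASO, with means of 666 ± 26.6 and 770 ± 36.2 CPM (SD, n = 3). On the log2 scale the difference was -0.21 (SE 0.08), which is 13.6% less. In bulk RNA, fewer cells of a type and less RNA per cell cannot be told apart.

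The CD8 genes were rare and did not move together. *Cd8a*, which encodes the alpha chain that can pair with itself or with the beta chain, lies on the plus strand at chr6:71373427-71379173 (ENSMUSG00000053977). It had 44, 57 and 36 counts under the scrambled label and 113, 57 and 106 counts under the *Pgam* label, or 2.48, 3.08 and 2.23 CPM against 7.02, 3.66 and 6.27 CPM. The groups did not overlap once scaled by depth, but replicate 2 of the libraries labelled *Pgam* ASO stood close to the scrambled range. The log2 fold change was 1.12 (SE 0.29). It was 0.94 without replicate 1 labelled *Pgam* ASO and 1.35 without replicate 2.

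*Cd8b1*, the beta chain gene, lies on the same strand at chr6:71322788-71337494 (ENSMUSG00000053044) and ends 35933 bases before *Cd8a* begins. It had 156, 193 and 139 counts under the scrambled label and 122, 113 and 159 counts under the *Pgam* label. Scaled by depth these were 8.78, 10.4 and 8.61 CPM against 7.58, 7.25 and 9.41 CPM, and the groups overlapped (log2 fold change -0.20, SE 0.18). The log2 fold change was -0.11 without replicate 2 labelled scrambled ASO and -0.32 without replicate 3 labelled *Pgam* ASO.

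Within a library, *Cd8a* therefore gained on *Cd8b1*. For every 100 counts of *Cd8b1* there were 28.2, 29.5 and 25.9 counts of *Cd8a* under the scrambled label and 92.6, 50.4 and 66.7 under the *Pgam* label. This ratio needs no scaling between libraries, and its groups did not overlap. The sum of both genes was 11.3, 13.5 and 10.8 CPM against 14.6, 10.9 and 15.7 CPM and overlapped. This sum and all ratios between genes given here and below were chosen after seeing the data.

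**Figure D1:**
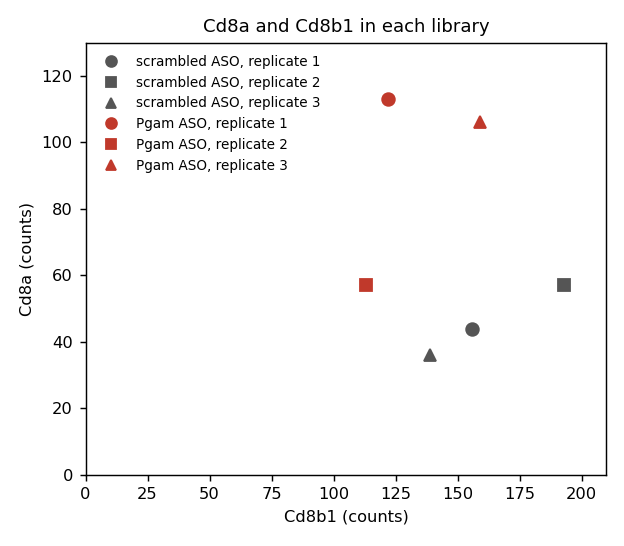
Counts of *Cd8a* (vertical axis) against counts of *Cd8b1* (horizontal axis), with 1 point for each of the 6 libraries. Grey points are libraries labelled scrambled ASO and red points those labelled *Pgam* ASO, and the shapes mark replicates 1 to 3; at 57 counts of *Cd8a*, replicate 2 of the scrambled group has 193 counts of *Cd8b1* and replicate 2 of the *Pgam* group has 113.

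Of the lineage factors, *Zbtb7b* followed *Cd4*. The gene of ThPOK, on the minus strand at chr3:89377644-89394776 (ENSMUSG00000028042), stood at 177, 191 and 161 CPM under the scrambled label and at 142, 145 and 156 CPM under the *Pgam* label. The groups did not overlap (log2 fold change -0.26, SE 0.09). An antisense transcript, *Gm15417*, overlaps *Zbtb7b*, and the sources used here do not say whether counting used strand.

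*Runx3*, which encodes the factor that silences *Cd4* in cytotoxic cells, lies on the plus strand at chr4:135120652-135177990 (ENSMUSG00000070691). It stood at 75.8, 72.8 and 91.0 CPM under the scrambled label and at 81.4, 78.8 and 96.6 CPM under the *Pgam* label. The groups overlapped, and replicate 3 was the highest of its group under both labels (log2 fold change 0.10, SE 0.11). The log2 fold change was 0.0097 without replicate 3 labelled *Pgam* ASO and 0.21 without replicate 3 labelled scrambled ASO. For 100 counts of *Runx3* there were 234, 263 and 177 counts of *Zbtb7b* against 175, 185 and 162, which also overlapped.

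The 3 CD3 genes sit together on chromosome 9 and were all lower in the libraries labelled *Pgam* ASO. They pair in the receptor complex as gamma with epsilon and delta with epsilon. The cluster spans 40055 bases, and *Cd3g* and *Cd3d* run away from each other with starts 1355 bases apart. *Cd3e*, on the minus strand at chr9:44998740-45009627 (ENSMUSG00000032093), stood at 209, 230 and 171 CPM under the scrambled label and at 142, 161 and 168 CPM under the *Pgam* label (log2 fold change -0.37, SE 0.12). An antisense transcript, *Gm48719*, overlaps it.

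*Cd3g*, on the minus strand at chr9:44969572-44980431 (ENSMUSG00000002033), was at 235, 278 and 220 CPM against 163, 200 and 216 CPM (log2 fold change -0.34, SE 0.12). *Cd3d*, on the plus strand at chr9:44981786-44987339 (ENSMUSG00000032094), was at 214, 251 and 205 CPM against 174, 185 and 197 CPM (log2 fold change -0.27, SE 0.10). For none of the 3 did the groups overlap, although the highest library labelled *Pgam* ASO came within a few CPM of the lowest scrambled one for *Cd3e* and *Cd3g*. The genes kept their proportions, with 103, 109 and 120 counts of *Cd3d* per 100 of *Cd3e* against 123, 115 and 117, which overlapped.

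The sequences just before the RefSeq starts of the CD3 genes and of *Cd8a* are shown because the CD3 genes were lower together while *Cd8a* was higher. They are 250 bases each, from a set of windows before RefSeq starts on GRCm38.p6. The set used here held windows for 8 of the 10 genes, and none for *Cd4* and *Cd8b1*. Capitals mark the ETS core AGGAAG on either strand (CTTCCT on the other), which 29.5% of 32851 windows of this length hold. Searched too were the RUNX core TGTGGT or ACCACA (14% of windows), the E-box form CAGCTG (13%) and the TATA box TATAAA or TTTATA (12.4%). Only these exact letters were searched, and shorter or other forms of a motif were not. The windows are chr9:44981536-44981785 on the plus strand for *Cd3d*, chr9:45009612-45009861 on the minus strand for *Cd3e*, chr9:44980432-44980681 on the minus strand for *Cd3g* and chr6:71373177-71373426 on the plus strand for *Cd8a*.
Cd3d: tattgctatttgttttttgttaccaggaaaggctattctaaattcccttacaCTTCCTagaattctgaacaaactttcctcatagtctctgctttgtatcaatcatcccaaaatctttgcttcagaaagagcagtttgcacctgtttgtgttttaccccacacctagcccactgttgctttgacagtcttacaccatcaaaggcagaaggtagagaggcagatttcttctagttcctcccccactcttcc
Cd3e: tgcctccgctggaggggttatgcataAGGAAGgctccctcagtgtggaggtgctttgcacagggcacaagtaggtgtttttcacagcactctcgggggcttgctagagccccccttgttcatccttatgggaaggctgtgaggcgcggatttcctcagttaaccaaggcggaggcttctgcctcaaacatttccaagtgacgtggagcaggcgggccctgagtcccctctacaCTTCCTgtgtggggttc
Cd3g: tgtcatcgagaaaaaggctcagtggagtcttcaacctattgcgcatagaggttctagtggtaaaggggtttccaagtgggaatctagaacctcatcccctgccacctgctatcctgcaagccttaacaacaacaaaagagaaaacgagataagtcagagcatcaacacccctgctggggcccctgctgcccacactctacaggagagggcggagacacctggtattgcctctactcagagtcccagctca
Cd8a: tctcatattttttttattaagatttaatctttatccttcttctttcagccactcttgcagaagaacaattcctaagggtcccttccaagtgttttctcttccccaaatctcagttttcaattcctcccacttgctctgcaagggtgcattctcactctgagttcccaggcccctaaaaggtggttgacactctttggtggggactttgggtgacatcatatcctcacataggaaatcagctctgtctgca

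The *Cd3d* window held 1 ETS core and the *Cd3e* window 2, while those of *Cd3g* and *Cd8a* held none of the 4 motifs in the exact letters searched. *Lck* and *Cd247*, which were not lower, held ETS cores too, 3 and 1 in the windows of *Lck* and 1 in that of *Cd247*, as did *Zbtb7b*, which was lower, with 1 in each of its windows. RUNX cores were found in windows of *Runx3* (2), *Zbtb7b* (1) and *Lck* (1). A match describes letters only, and a window without one says nothing of the factor.

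The zeta chain and the kinase did not follow the CD3 genes. *Cd247*, whose product carries most of the signalling motifs of the complex, lies on the plus strand at chr1:165788681-165877277 (ENSMUSG00000005763). It was at 126, 138 and 105 CPM under the scrambled label and at 135, 131 and 136 CPM under the *Pgam* label, and the groups overlapped (log2 fold change 0.12, SE 0.10). It shares 54.4% of its 31-base stretches with *Pou2f1*, which overlaps it on the opposite strand, so its counts are uncertain. With *Pou2f1* added, the log2 fold change was 0.04. That of *Cd247* alone was 0.02 without replicate 3 labelled scrambled ASO and 0.21 without replicate 2 of that label.

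For 100 counts of *Cd3e* there were 60.7, 60.05 and 61.1 counts of *Cd247* in the libraries labelled scrambled ASO and 95.0, 81.5 and 80.8 under the *Pgam* label. The ratio barely varied among the scrambled libraries and its groups did not overlap. *Lck*, on the minus strand at chr4:129548344-129573641 (ENSMUSG00000000409), was at 505, 483 and 500 CPM against 522, 494 and 544 CPM, with overlap (log2 fold change 0.07, SE 0.08). Per 100 counts of *Cd4* there were 65.1, 60.1 and 68.3 counts of *Lck* against 80.2, 75.9 and 78.0, without overlap.

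**Figure D2:**
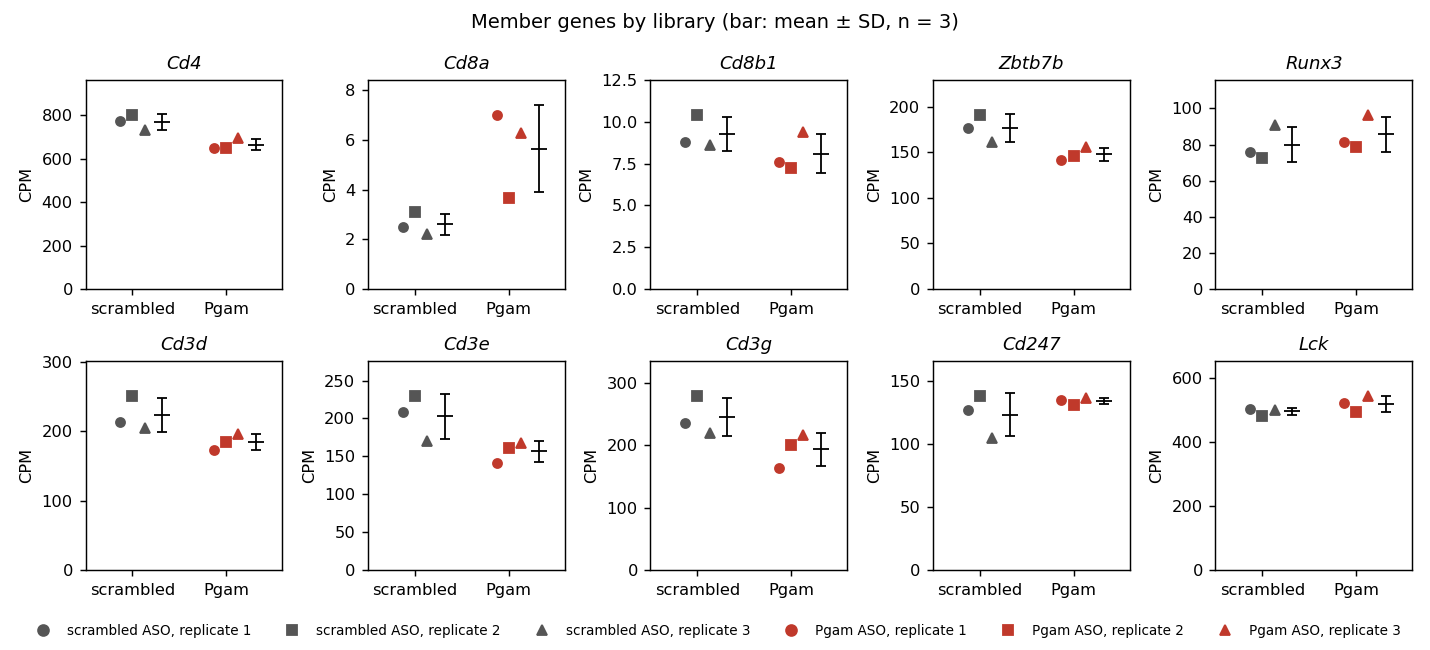
CPM of each of the 10 genes in each library, with a panel per gene and axes that start at 0. Grey points are the 3 libraries labelled scrambled ASO, red points the 3 labelled *Pgam* ASO, shapes mark replicates 1 to 3, and the black mark beside each group is its mean ± SD; *Cd4*, *Zbtb7b* and the 3 CD3 genes are lower without overlap, *Cd8a* is higher, and *Cd8b1*, *Runx3*, *Cd247* and *Lck* overlap.

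Counted over the 10 genes, the groups did not overlap for 6, of which 5 were lower and 1 was higher in the libraries labelled *Pgam* ASO. Among all tested genes, 39.5% did not overlap, 19.8% lower and 19.6% higher. At an edgeR adjusted p under 0.05, 1 of the 10 passed, *Cd8a*, beside 17.2% of all tested genes, 8.03% higher and 9.15% lower. Nothing is read from these counts, because the genes were chosen with the same contrast known. Without replicate 1 labelled scrambled ASO or replicate 1 labelled *Pgam* ASO 0 of the 10 passed, without replicate 3 labelled scrambled ASO 5 passed, and without replicate 3 labelled *Pgam* ASO 3 passed. With the replicate number as a block 0 of the 10 passed.

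Levels can be compared between genes only per length, here as CPM per kb of the median coding transcript. In the libraries labelled scrambled ASO, *Cd3g* led at 341 ± 42.3 CPM per kb (SD, n = 3). *Cd4* at 248 ± 11.6, *Lck* at 237 ± 5.49 and *Cd3d* at 235 ± 25.5 CPM per kb came next and, with these lengths, did not differ beyond their spread. *Cd3e* followed at 139 ± 20.3, *Zbtb7b* at 84.4 ± 7.15, *Cd247* at 54.3 ± 7.48 and *Runx3* at 27.8 ± 3.40 CPM per kb.

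The CD8 genes were far below, with *Cd8b1* at 6.25 ± 0.675 and *Cd8a* at 0.850 ± 0.143 CPM per kb. Under the *Pgam* label the order was the same except that *Lck*, at 248 ± 11.8 CPM per kb, stood above *Cd4*, at 214 ± 8.56. *Cd8a*, at 1.85 ± 0.578 CPM per kb, remained the lowest. The order depends on the length taken, above all for *Cd3g*, whose longest transcript is 2539 bases against a median of 717.5. With the longest transcripts *Cd3g* came to 96.3 CPM per kb and to place 4 in the libraries labelled scrambled ASO. *Cd4* at 248 and *Lck* at 227 CPM per kb then stood well above *Cd3d* at 138, *Cd3e* came to 79.6, and *Zbtb7b* at 40.8 did not differ beyond its spread from *Cd247* at 41.6.

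*Cd4* outweighed *Cd8a* per length by 307, 256 and 322 times under the scrambled label and by 91.0, 175 and 109 times under the *Pgam* label. Against *Cd8b1* the same ratio was 42.1, 36.8 and 40.6 against 40.9, 42.8 and 35.3, with overlap. The ratio to *Cd8a* thus separated the groups and the ratio to *Cd8b1* did not.

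**Figure D3:**
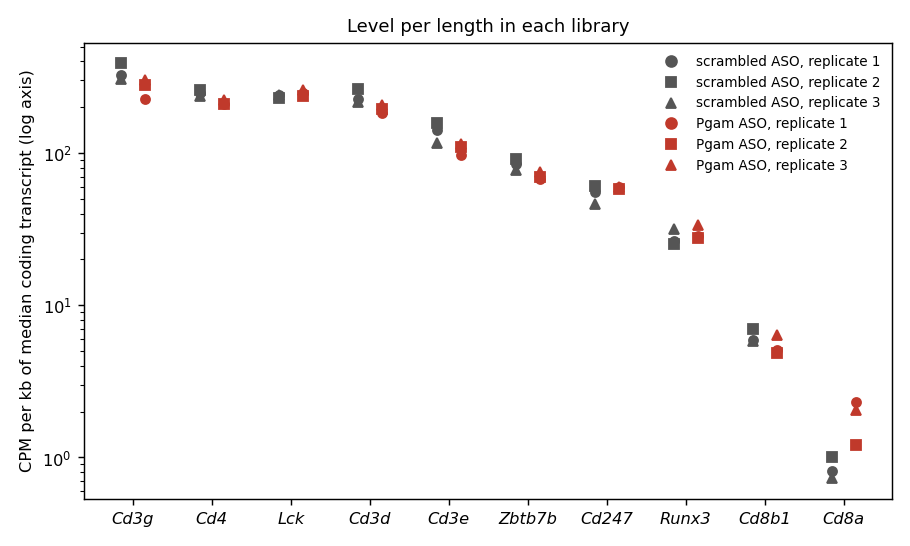
Level per length of the 10 genes in each library, in CPM per kb of the median coding transcript on a log axis, ordered by the mean of the libraries labelled scrambled ASO. Grey points are scrambled and red points *Pgam* libraries, with shapes for replicates 1 to 3; *Cd8a* is the lowest gene under both labels, at 0.850 and 1.85 CPM per kb on average.

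Over the 6 libraries, *Cd4*, *Zbtb7b*, *Cd3d*, *Cd3e* and *Cd3g* ran in parallel. Pearson r of log2 CPM was between 0.91 and 0.99 for the 10 pairs of these 5 genes. The points share libraries, scaling and the difference between labels, and the 5 genes were picked for being lower, so r is a description. Among 11920 genes, *Zbtb7b* was most like *Tnrc6b*, *Stk10* and *Rhoh* (r of 0.9997, 0.9995 and 0.9992), and 1584 genes had an r over 0.9. *Cd4* was most like *Mettl23*, *Ash1l* and *Tbc1d14* (r of 0.9996, 0.998 and 0.997), with 1576 genes over 0.9. *Cd8a* was most like *Mid1*, *Traf7* and *Hnrnph3* (r of 0.987, 0.985 and 0.984), with only 112 genes over 0.9. Spearman's rho of these 9 genes was 1 or 0.943.

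Genes within 50 kb of a member, the other members left aside, were looked at after seeing the data. Beside *Cd4* 2 of 9 tested genes passed in edgeR, *Usp5* as higher and *Ptms* as lower. Beside *Lck* 1 of 7 passed, *Dcdc2b* as lower. Of 2 genes tested beside *Cd8b1* and 6 beside *Cd247*, 0 passed. Beside *Cd8a* 1 of 5 such genes was tested, *Rmnd5a*, and it fell (log2 fold change -0.54, edgeR adjusted p = 0.00723), the opposite of *Cd8a*. *Gm44174*, a noncoding transcript 143 bases from *Cd8a*, had 9 counts over all libraries. Beside *Cd3g* 1 of 5 tested genes passed, *Ube4a* at 3972 bases, and it fell (log2 fold change -0.31, edgeR adjusted p = 0.0390). Beside *Zbtb7b* 2 of 10 tested genes passed, as *Pbxip1* fell (log2 fold change -1.03, edgeR adjusted p = 0.00596) and *Cks1b* rose (0.32, adjusted p = 0.0465). The 1 gene tested beside *Runx3*, *Clic4*, rose (0.75, edgeR adjusted p = 0.00479). Among all tested genes 17.2% passed, and nothing is read from these counts.

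The other genes of the pathway were tested with edgeR over all genes, and each list is set beside all 14936 genes. Of these 8.03% rose and 9.15% fell, and their median log2 fold change was -0.01. The lists were chosen with earlier results of these data known. Their counts and medians and the p-values of their genes are therefore a description, and none is used as support. The constant genes of the T cell receptor did not move together. Of 8 listed, 7 were tested, 3 rose and 1 fell, with a median of -0.25. *Trac*, the alpha constant gene, fell from 328, 348 and 313 CPM to 246, 272 and 285 CPM (log2 fold change -0.30, SE 0.09, edgeR adjusted p = 0.0416). The beta constant genes *Trbc1* and *Trbc2*, which share 44.8% of the stretches of *Trbc1*, had log2 fold changes of -0.31 and -0.25 and did not pass. They and *Trdc* below were named after their values were seen.

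Transcripts of the gamma constant genes rose. *Tcrg-C2* went from 3.26, 3.29 and 4.83 CPM to 9.94, 14.8 and 12.01 CPM (log2 fold change 1.69, SE 0.23, edgeR adjusted p = 0.00229). *Tcrg-C4* went from 2.08, 1.89 and 2.48 CPM to 7.52, 5.65 and 6.98 CPM (log2 fold change 1.64, adjusted p = 0.00279). *Tcrg-C1* rose by 1.23 on the same scale (edgeR adjusted p = 0.0142), and it shares 35.8% of its stretches with *Tcrg-C2*. *Tcrg-C2* shares 45.9% of its own stretches with other genes, and *Tcrg-C4* shares 0%. *Trdc*, the delta constant gene without which no gamma-delta receptor forms, did not rise, at 3.71, 4.27 and 3.28 CPM against 2.79, 2.95 and 2.78 CPM (log2 fold change -0.40, adjusted p = 0.248). *Tcrg-C2* and *Tcrg-C4* passed in each of 12 alternatives, while *Trac* did not pass in 5 of them (adjusted p from 0.0244 to 0.153 over the alternatives). Its adjusted p was 0.126 and 0.0898 without replicates 1 and 2 labelled scrambled ASO, and 0.153 and 0.140 without replicates 1 and 2 labelled *Pgam* ASO, and 0.10004 with the replicate number as a block, while *Tcrg-C1* was at 0.0535 without replicate 1 labelled scrambled ASO and at 0.0797 without replicate 2 labelled *Pgam* ASO. The count of 4 was 2 without replicate 1 labelled scrambled ASO and 2 without replicate 2 labelled *Pgam* ASO.

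**Figure D4:**
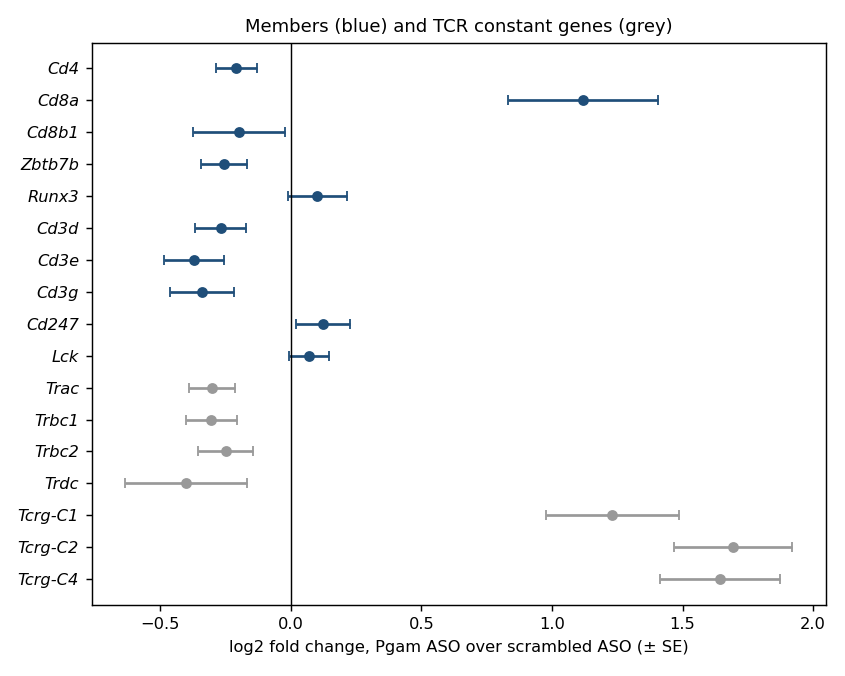
Log2 fold change (libraries labelled *Pgam* ASO over scrambled ASO) ± SE from edgeR for the 10 genes (blue) and 7 T cell receptor constant genes (grey), with 3 libraries a group. *Trac*, *Trbc1* and *Trbc2* lie near the CD3 genes at -0.25 to -0.31, and the 3 gamma constant genes lie at 1.23 to 1.69.

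Proximal signalling covers the steps from ZAP70 and LAT to protein kinase C. Of 22 genes tested, 1 rose and 1 fell, beside 17.2% of all tested genes past the threshold, with a median of -0.08. *Cd28*, the costimulatory receptor that the culture also engages by antibody, fell from 434, 470 and 397 CPM to 271, 279 and 272 CPM (log2 fold change -0.66, SE 0.09, edgeR adjusted p = 0.00183) and passed in each of 12 alternatives. *Tec*, a tyrosine kinase gene, rose from 16.9, 14.8 and 22.2 CPM to 26.3, 29.5 and 29.2 CPM (log2 fold change 0.66, adjusted p = 0.02003). *Tec* did not pass without replicate 1 labelled scrambled ASO (adjusted p = 0.0817) or without replicate 2 labelled *Pgam* ASO (0.0967). Without either of these libraries 1 call was left, without replicate 3 labelled scrambled ASO there were 5 and without replicate 3 labelled *Pgam* ASO 4.

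Of 20 tested brakes on LCK and the receptor, 7 fell and 0 rose, beside 9.15% and 8.03% of all tested genes, with a median of -0.28. Past the threshold or not, 8 were lower and 3 higher without overlap, beside 19.8% and 19.6% of all tested genes. *Dgka*, a kinase that removes the second messenger diacylglycerol, fell from 674, 940 and 541 CPM to 250, 275 and 342 CPM (log2 fold change -1.31, SE 0.21, edgeR adjusted p = 0.00835). *Cblb*, a ubiquitin ligase that raises the threshold of activation, fell from 176, 210 and 142 CPM to 84.7, 73.1 and 91.3 CPM (log2 fold change -1.08, adjusted p = 0.00188). Both passed in each of 12 alternatives.

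The adaptor gene *Lax1* (log2 fold change -0.69, edgeR adjusted p = 0.0424), the surface receptor gene *Cd5* (-0.49, adjusted p = 0.0193) and the phosphatase gene *Ubash3b* (-0.47, adjusted p = 0.0126) also fell. *Lax1* (0.105), *Cd5* (0.0678) and *Ubash3b* (0.0637) did not pass without replicate 1 labelled scrambled ASO (adjusted p in brackets). *Lax1* also did not pass without replicate 2 labelled scrambled ASO (0.120, log2 fold change -0.44) and without replicates 1 and 3 labelled *Pgam* ASO, each left out alone (0.126 and 0.05004), or with the replicate number as a block (0.0697). *Lax1* (0.136), *Cd5* (0.106) and *Ubash3b* (0.0823) did not pass without replicate 2 labelled *Pgam* ASO. The count of 7 was 2 without replicate 1 labelled scrambled ASO, 4 without replicate 2 of that label, and 4 and 2 without replicates 1 and 2 labelled *Pgam* ASO. *Csk*, the kinase that shuts LCK directly, was at 282, 283 and 279 CPM against 344, 327 and 305 CPM and did not pass (log2 fold change 0.21, adjusted p = 0.0918); it was named after its values were seen.

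Of the 5 activators of LCK, 2 rose and 0 fell, with a median of 0.26. *Cdc37*, a cochaperone of kinases, rose from 277, 245 and 298 CPM to 362, 339 and 334 CPM (log2 fold change 0.34, SE 0.09, edgeR adjusted p = 0.0342). The other, *Hsp90aa1*, named after its values were seen, had overlapping groups and shares 51.5% of its stretches with other genes. *Ptprc*, the gene of the phosphatase CD45, also named after its values were seen, was at 1325, 1598 and 1131 CPM against 977, 1064 and 1074 CPM, without overlap (log2 fold change -0.38, adjusted p = 0.0511). The list had 1 gene past the threshold as lower with DESeq2, with library size alone, with no filter on low counts, with at least 10 counts in every library and without replicate 3 labelled scrambled ASO. *Cdc37* did not pass without replicates 1 and 2 labelled scrambled ASO (adjusted p of 0.110 and 0.0738) or without replicates 1 and 2 labelled *Pgam* ASO (0.115 and 0.120), each left out alone, or with the replicate number as a block (0.0773). No call was left in this list without replicate 1 or 2 of either label.

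Among 32 other regulators of CD4 and CD8 fate, 4 rose and 6 fell, with a median of -0.06. *Gata3*, which acts upstream of ThPOK in the thymus, rose from 47.5, 62.2 and 35.8 CPM to 113, 82.9 and 75.2 CPM (log2 fold change 0.89, SE 0.22, edgeR adjusted p = 0.0321). *Socs1*, an inhibitor of cytokine receptors, rose by 0.80 (adjusted p = 0.0147), *Id2* by 0.39 (adjusted p = 0.0349) and the methyltransferase gene *Dnmt1* by 0.32 (adjusted p = 0.0276) on the log2 scale. *Gata3* (0.102), *Id2* (0.103) and *Dnmt1* (0.0927) did not pass without replicate 1 labelled scrambled ASO (adjusted p in brackets). *Id2* (0.0830) and *Dnmt1* (0.0556) did not pass without replicate 2 labelled scrambled ASO. *Gata3* (0.0635), *Id2* (0.118) and *Dnmt1* (0.0897) did not pass without replicate 1 labelled *Pgam* ASO. *Gata3* (0.0886), *Socs1* (0.0674), *Id2* (0.131) and *Dnmt1* (0.116) did not pass without replicate 2 labelled *Pgam* ASO. With the replicate number as a block, *Id2* (0.0746) and *Dnmt1* (0.0766) did not pass either.

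*Bcl6* fell from 14.4, 19.8 and 7.93 CPM to 2.24, 2.76 and 5.74 CPM (log2 fold change -1.97, SE 0.42, edgeR adjusted p = 0.0220). *Tox*, needed for the CD4 lineage in the thymus, fell from 28.9, 35.9 and 25.9 CPM to 13.04, 13.1 and 14.9 CPM (log2 fold change -1.14, adjusted p = 0.00155) and passed in each of 12 alternatives. *Tcf7*, the gene of TCF1, fell by 1.19 (adjusted p = 0.0298), the corepressor gene *Tle4* by 0.83 (adjusted p = 0.0158) and *Myb* by 0.45 (adjusted p = 0.00716) on the log2 scale. *Bcl6* (0.0672), *Tcf7* (0.0775) and *Tle4* (0.0646) did not pass without replicate 1 labelled scrambled ASO (adjusted p in brackets). *Bcl6* (0.0527) did not pass without replicate 2 labelled scrambled ASO. *Bcl6* (0.0614), *Tcf7* (0.0992) and *Tle4* (0.0535) did not pass without replicate 1 labelled *Pgam* ASO. *Bcl6* (0.0949), *Tcf7* (0.110), *Tle4* (0.0874) and *Myb* (0.0558) did not pass without replicate 2 labelled *Pgam* ASO. The replicate number as a block took the call from *Bcl6* (0.0644) and *Tcf7* (0.0574), and no filter on low counts took it from *Tcf7* (0.120). The count of 10 was 3 and 6 without replicates 1 and 2 labelled scrambled ASO, and 3 and 1 without replicates 1 and 2 labelled *Pgam* ASO.

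Most genes of the CD8 and cytotoxic program that passed went the other way from *Cd8a*. Of 22 listed, 19 were tested, 1 rose and 6 fell, with a median of -0.52. *Ctsw*, a cathepsin of killer cells, fell from 25.9, 26.2 and 23.4 CPM to 9.38, 10.5 and 10.7 CPM (log2 fold change -1.30, SE 0.12, edgeR adjusted p = 0.000443) and passed in each of 12 alternatives. *Klrd1*, the gene of CD94, fell from 5.35, 9.78 and 3.22 CPM to 0.994, 1.41 and 1.89 CPM (log2 fold change -2.09, adjusted p = 0.0131).

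The chemokine genes *Xcl1* (log2 fold change -2.04, edgeR adjusted p = 0.0237) and *Ccl5* (-1.16, adjusted p = 0.0132) fell as well, as did *Klrc1* (-1.29, adjusted p = 0.0124), which shares 49.6% of its stretches with *Klrc2*. *Fasl*, the death ligand that helper cells also make, rose from 13.4, 13.1 and 16.5 CPM to 27.8, 23.1 and 18.2 CPM (log2 fold change 0.68, adjusted p = 0.0257). Whether past the threshold or not, 4 of the 19 tested genes of this list were higher without overlap and 11 were lower, beside 19.6% and 19.8% of all tested genes. The granzyme genes *Gzma* and *Gzmk* and the receptor gene *Klrg1* were too low to test. Without replicate 1 labelled *Pgam* ASO the log2 fold change of *Xcl1* was -2.79. *Xcl1* (0.0792), *Klrc1* (0.0503) and *Fasl* (0.0977) did not pass without replicate 1 labelled scrambled ASO (adjusted p in brackets). *Xcl1* (0.0566) and *Fasl* (0.0633) did not pass without replicate 2 labelled scrambled ASO. *Fasl* (0.0907) did not pass without replicate 1 labelled *Pgam* ASO. *Klrd1* (0.0765), *Xcl1* (0.111), *Ccl5* (0.0632) and *Fasl* (0.108) did not pass without replicate 2 labelled *Pgam* ASO. *Fasl* also did not pass with the replicate number as a block (0.0637). The count of 7 was 3 without replicate 1 labelled scrambled ASO and 2 without replicate 2 labelled *Pgam* ASO.

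Among 10 surface genes of helper T cells, 2 rose and 3 fell, with a median of -0.12. *Cd40lg*, the ligand through which helper cells license B cells, rose from 52.4, 53.6 and 53.8 CPM to 85.3, 72.3 and 66.7 CPM (log2 fold change 0.49, SE 0.10, edgeR adjusted p = 0.0146). *Tnfsf8* rose by 0.58 (adjusted p = 0.0226). *Cd27* fell from 76.8, 136 and 49.3 CPM to 12.4, 17.1 and 29.5 CPM (log2 fold change -2.15, adjusted p = 0.0372), *Cxcr5* fell by 1.496 (adjusted p = 0.000855) and *Il6ra* by 0.81 (adjusted p = 0.0176). *Cxcr5* passed in each of 12 alternatives. *Cd40lg* (0.0694), *Tnfsf8* (0.0873), *Cd27* (0.0935) and *Il6ra* (0.0631) did not pass without replicate 1 labelled scrambled ASO (adjusted p in brackets). *Cd27* (0.0971) did not pass without replicate 2 labelled scrambled ASO. *Tnfsf8* (0.0674), *Cd27* (0.108) and *Il6ra* (0.0571) did not pass without replicate 1 labelled *Pgam* ASO. *Cd40lg* (0.0704), *Tnfsf8* (0.0963), *Cd27* (0.124) and *Il6ra* (0.0878) did not pass without replicate 2 labelled *Pgam* ASO. *Cd27* also did not pass with the replicate number as a block (0.0778) or with no filter on low counts (0.120). The count of 5 was 1 without replicate 1 labelled scrambled ASO, and 2 and 1 without replicates 1 and 2 labelled *Pgam* ASO.

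**Figure D5:**
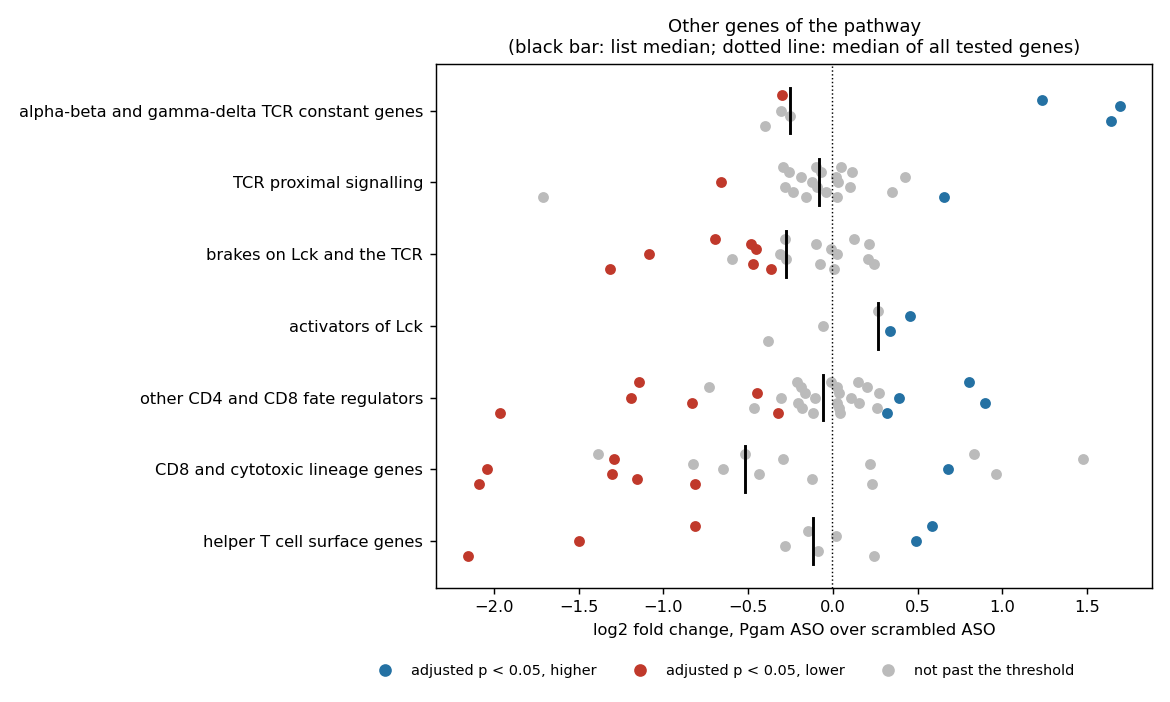
Log2 fold change (libraries labelled *Pgam* ASO over scrambled ASO) of each tested gene in 7 lists of other pathway genes, with 3 libraries a group. Blue and red points passed an edgeR adjusted p of 0.05 as higher or lower, grey points did not, black bars are list medians and the dotted line is the median of all tested genes; the brakes hold 7 red points and no blue one.

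Markers of NK, myeloid, B and erythroid cells, which negative selection is meant to remove, were low. Of 6 genes listed for NK cells 0 were tested, and *Klrb1c*, *Klra8* and *Klra4* had 0 counts in every library, where 3 counts correspond to 0.162 to 0.192 CPM. These floors cover counting error only. The sum was 0.788, 1.57 and 0.186 CPM under the scrambled label and 0.994, 0.770 and 0.710 CPM under the *Pgam* label, led by *Klri2*. Of 12 genes listed for dendritic and myeloid cells 4 were tested and 0 passed, and *Siglech*, *Clec9a* and *Cd209a* were at 0 counts. Their sum was 14.97, 15.7 and 15.6 CPM against 12.9, 10.97 and 11.6 CPM, led by *Zbtb46*. Some dendritic cells carry *Cd8a*, and the part of these genes in its values was not tested.

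The 10 genes listed for B cells, led by *Ebf1*, summed to 16.3, 16.3 and 16.0 CPM against 19.6, 15.8 and 14.6 CPM, and 1 of 7 tested passed. It was *Fcer2a*, named after its values were seen, which rose (log2 fold change 1.55, edgeR adjusted p = 0.0103). The 6 genes listed for erythroid cells, led by *Alas2*, summed to at most 4.16 CPM in any library, and of 3 tested 0 passed. The 7 genes listed for gamma-delta and NKT cells, 4 of them constant genes already given, led by *Tcrg-C2*, summed to 12.5, 13.2 and 15.2 CPM against 29.0, 30.7 and 28.9 CPM, with 3 of 6 tested genes past the threshold, the 3 gamma constant genes described above. Past the threshold or not, 4 of these 6 were higher without overlap and 1, *Trdc*, was lower, beside 19.6% and 19.8% of all tested genes. The sum alone therefore does not mark gamma-delta cells. The part of these 7 genes in the values of *Cd8a* was not tested.

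Of 7 genes listed for thymocytes, led by *Themis*, which mature T cells express too, 3 were tested and 1 passed. It was *Dntt*, the gene of terminal transferase, with 234, 283 and 192 counts in the libraries labelled scrambled ASO and 14, 20 and 35 under the *Pgam* label (log2 fold change -3.24, edgeR adjusted p = 0.000395). The defining markers *Rag2* and *Ptcra* were at 0 counts and *Rag1* at 6 counts or fewer in every library. The list summed to 213, 228 and 233 CPM against 214, 304 and 312 CPM. *Dntt* was named after its values were seen, and its part in the values of the coreceptor genes was not tested.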

How the data were processed

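Messenger RNA of unsorted mouse CD4 cells was sequenced in 6 libraries, of which 3 carry the label scrambled ASO and 3 the label *Pgam* ASO, and the table holds estimated counts per gene that the authors deposited. According to the submitters' processing notes these came from Kallisto on GRCm38, and the annotation release is not given in the sources used here. The counts are whole numbers, with 15860476 to 18032805 per library, at which 3 counts correspond to 0.162 to 0.192 CPM (counts scaled to the size of the library). All 6 columns were used, and of 56748 Ensembl genes 52073 had a symbol and 28236 had 0 counts in every library. CPM used each library's total over the tested genes times the scaling factor of edgeR's TMM method.

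Genes with low counts were removed with the defaults of filterByExpr in edgeR 4.0.16 (R 4.3.3, limma 3.58.1), which left 14936. Scrambled and *Pgam* libraries were compared by the quasi-likelihood test of edgeR with its robust option, and p-values were adjusted over all tested genes by the method of Benjamini and Hochberg with a threshold of 0.05. The SE of a log2 fold change is its size divided by the square root of the F statistic. The libraries are described as biological replicates, but no source says that those of a group came from separate animals, so p-values measure the spread between samples. The steps were tested on simulated data where the share of false calls with DESeq2 went past the limit set for the first run, and the test was then changed to judge the mean over 6 runs, that one included. Groups are said not to overlap when every library of one lies above every library of the other in CPM.

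The 10 genes and the lists of other pathway genes and of cell type markers were chosen with earlier results of these data known. In each list the text names up to 5 genes in each direction with the largest change among those past the threshold whose groups do not overlap. Levels per length used the median length of coding transcripts in GENCODE M21 on GRCm38, which also gave the coordinates. Shared sequence is the percent of a gene's 31-base stretches also found in transcripts of other genes. Likeness between genes is Pearson's r of log2 CPM with a prior count of 2, over genes with a mean log2 CPM of at least 1. Sequences are windows before RefSeq starts on GRCm38.p6, and the set of windows used here held 8 of the 10 genes.

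Alternatives were DESeq2 1.42.0, RLE size factors, library size alone, no filter on low counts, at least 10 counts in every library, the replicate number as a block, leaving out each library in turn, summing genes that share at least 10% of their stretches, and the longest transcript for length.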

Additional observations from a re-analysis of the deposited data

How the results depend on the processing

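All 10 genes kept the sign of their log2 fold change under the 12 alternatives run for each. *Cd8a* ranged from 0.94 to 1.35, and summed with *Cd8b1*, an alternative chosen after seeing the data, the value was 0.21. With 1 library left out, *Cd3d* ranged from -0.32 to -0.18 and *Lck* from 0.04 to 0.10. The number of the 10 past the threshold, 1 with edgeR, was 2 with DESeq2, 2 with library size alone and 3 with no filter on low counts, and it ranged from 0 to 5 when libraries were left out. Over the alternatives of the pathway genes that the naming rule picked, a call was kept 307 times and lost 77 times, and it reversed 0 times.

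With 1 library left out, the 2565 calls over all genes ranged from 391 to 3484. They ranged from 2 to 5 for the constant genes of the receptor, from 1 to 5 for proximal signalling, from 2 to 10 for the brakes, from 0 to 3 for the activators of LCK, from 1 to 14 for the fate regulators, from 2 to 10 for the CD8 and cytotoxic genes and from 1 to 5 for the helper genes. Fewer libraries were compared in these fits. Proximal signalling had 4 calls with DESeq2 and 4 with no filter on low counts, and the CD8 and cytotoxic genes had 11 with no filter. The cause was not tested.

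With the replicate number as a block, 1235 genes passed, 0 of the 10, 4 brakes, 0 activators of LCK, 5 fate regulators, 3 constant genes, 2 genes of proximal signalling, 6 CD8 and cytotoxic genes and 4 helper genes. Libraries of the same number had r of 0.0534, -0.034 and -0.237 after removing the group means. Those of different number had r from -0.254 to 0.28. With 3 libraries a group, such values cannot tell whether the libraries were pairs. No source used here states a pairing, so they were not treated as pairs. The block uses up degrees of freedom.

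The median log2 fold change of all genes stayed within 0.1 of 0 under every scaling. Genes with few counts, such as the 6 NK cell markers, did not pass the filter and have no test.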
